A study of Mus musculus with 4 samples.

Results

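The LIF-STAT3 pathway was described through 10 genes, Lifr, Il6st, Jak1, Stat3, Socs3, Pim1, Pim3, Gbx2, Junb and Laptm5. They were taken by gene symbol from the 22180 genes measured on 4 whole-transcript arrays of mouse embryonic stem cells, and 13 probe sets carry these symbols. The cells on the sea urchin PRDM14 and CBFA2T array co-expressed the 2 sea urchin proteins of that name. The other 3 arrays held cells with sea urchin PRDM14, with mouse PRDM14 or with an empty vector. All 4 groups were Prdm14 knockout cells, grown on STO fibroblast feeder cells in medium with 2 inhibitors (2i) and leukemia inhibitory factor (LIF). PRDM14 is a zinc finger protein of pluripotent and germ cells, and CBFA2T is a co-repressor that works with it. LIF was thus present in every group, so no comparison below is of cells with LIF and cells without it. The number of clones behind each group is not stated in the sources used here.

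LIF binds the receptor LIFR, which pairs with gp130, the product of Il6st. The receptor pair switches on the kinase JAK1, which phosphorylates STAT3, and STAT3 enters the nucleus and turns on genes that keep mouse embryonic stem cells self-renewing. Among the genes that STAT3 is known to turn on are Socs3, whose protein shuts the receptor signal off again, and genes of kinases and transcription factors of the naive state.

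Each group had 1 array, so no value has a replicate error, no test was made, and each difference is between 2 arrays. The number of arrays limits the precision. Values are the authors' log2 RMA values, in which the distributions of the arrays are made equal and folds of dim genes are pulled toward 1. The Prdm14 probe set read 5.53 with sea urchin PRDM14 and CBFA2T, 5.77 with sea urchin PRDM14, 5.57 with mouse PRDM14 and 5.71 with the empty vector. It therefore did not check the labels, and each group name stands for the array labelled with it. The 9 pluripotent cell markers were all above the filter value of 4.84, which is the median over the named probe sets, on every array. Their levels were not equal. Above the empty vector were 1 of the 9 with sea urchin PRDM14 and CBFA2T, 2 with sea urchin PRDM14 and 7 with mouse PRDM14. The shares of all genes were 51.6%, 51.6% and 48.4%. Tdgf1 had the widest range, from 7.58 with sea urchin PRDM14 and CBFA2T to 8.74 with sea urchin PRDM14. Of 15 fibroblast markers, 12 were above the filter value on every array. Dcn (3.57 to 3.64), Lum (2.76 to 3.12) and Postn (4.06 to 4.24) were below it on all 4 arrays. The part of feeder cell RNA in the values below was not tested. In these bulk samples fewer cells of a type and less RNA per cell cannot be told apart. The mean of the fibroblast markers was 5.55 with sea urchin PRDM14 and CBFA2T, 5.58 with sea urchin PRDM14, 5.65 with mouse PRDM14 and 5.61 with the empty vector. Fn1 had the widest range of them, at 7.30, 7.86, 8.09 and 7.79 in the same order. Of the 12, 10 were lower with CBFA2T than with sea urchin PRDM14 alone and 2 were higher. Among all genes 50.0% were lower.

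All 10 genes passed the filter, which asks that the highest of the 4 arrays reach 4.84. None of the 10 was 2-fold apart in any of the 6 comparisons. The share of all 12042 genes past the filter that were 2-fold apart was also small. Against the empty vector it was 0.208% with sea urchin PRDM14 and CBFA2T, 0.0332% with sea urchin PRDM14 and 0.083% with mouse PRDM14. It was 0.183% for sea urchin PRDM14 and CBFA2T against sea urchin PRDM14 alone, 0.183% for sea urchin PRDM14 and CBFA2T against mouse PRDM14, and 0.0581% in the comparison of sea urchin PRDM14 with mouse PRDM14.

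At 1.5-fold, 1 of the 10 genes was past the threshold, Laptm5, in the comparison of sea urchin PRDM14 and CBFA2T with the empty vector, where 0.822% of all genes were. In the other 5 comparisons 0 of the 10 were past 1.5-fold. The background shares at 1.5-fold were 0.498% with sea urchin PRDM14 and 0.457% with mouse PRDM14, each set against the empty vector. They were 0.515% for the sea urchin arrays with and without CBFA2T, 0.739% for sea urchin PRDM14 and CBFA2T against mouse PRDM14, and 0.515% in the comparison of sea urchin PRDM14 with mouse PRDM14. The plot of the members by array shows that most lay within a narrow band, and that the pattern over the arrays was not shared by the set.

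**Figure D1:**
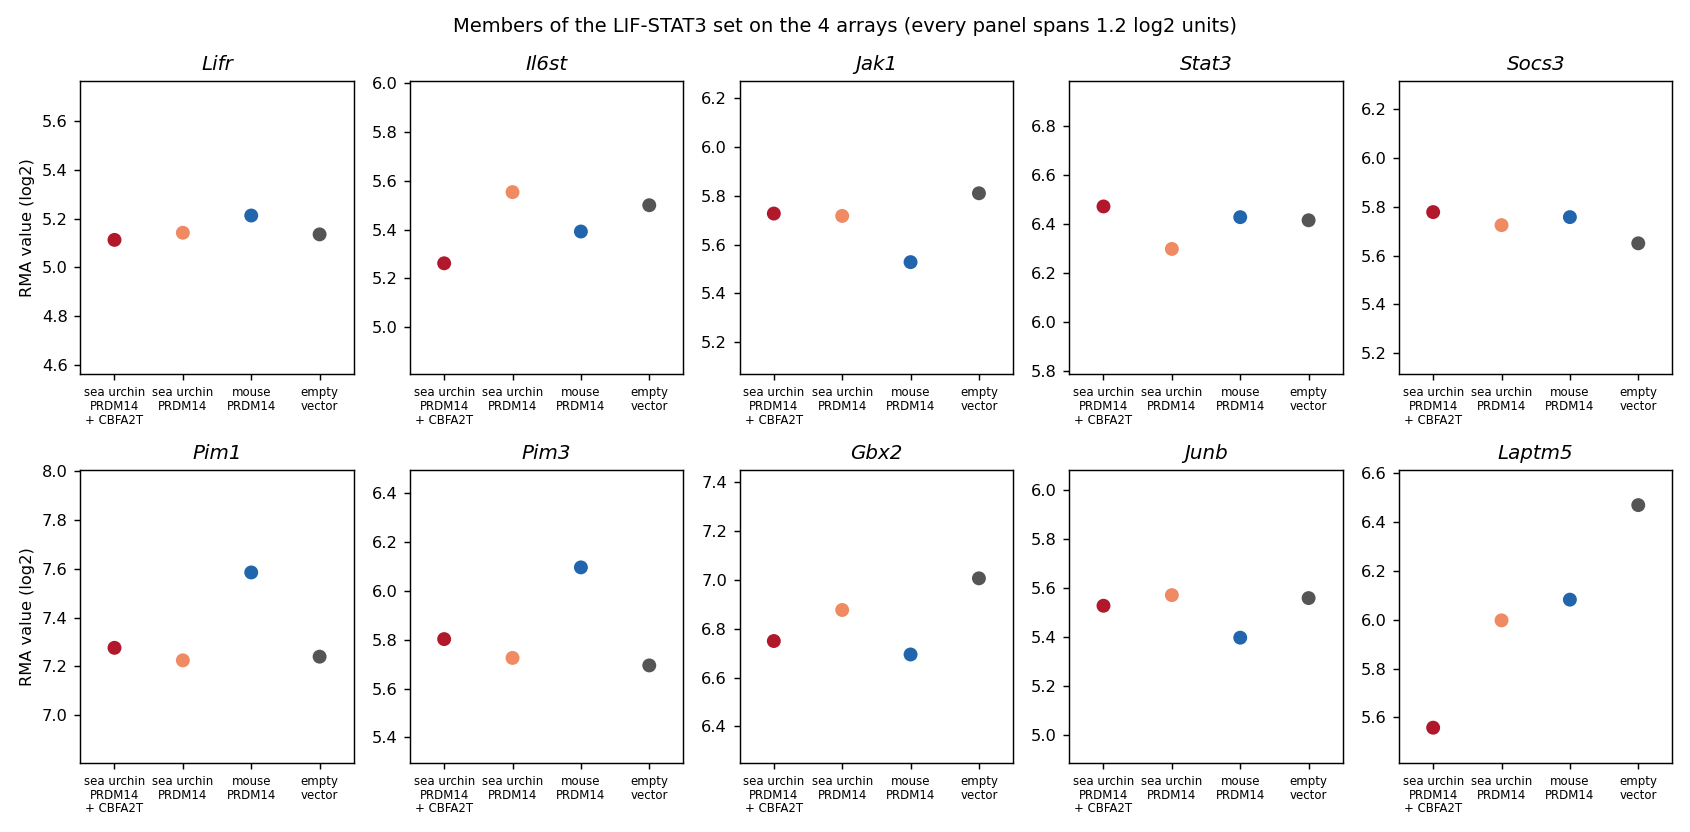
Log2 RMA value (vertical axis) of the 10 genes on the 4 arrays (horizontal axis), with 1 point per array and no error bars because each group had 1 array; all panels span the same log2 range. Pim1 and Pim3 stand highest on the mouse PRDM14 array, and Laptm5 runs between 5.56 with sea urchin PRDM14 and CBFA2T and 6.47 with the empty vector.

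Of the receptor genes and the kinase gene, Lifr differed least between the arrays. Lifr, which encodes the LIF-binding receptor chain, read 5.11 with sea urchin PRDM14 and CBFA2T, 5.14 with sea urchin PRDM14, 5.21 with mouse PRDM14 and 5.14 with the empty vector. Its range over the 4 arrays, 0.10 on the log2 scale, was the smallest of the 10. Il6st, the gene of the shared signal-transducing chain gp130, read 5.26 with sea urchin PRDM14 and CBFA2T, 5.55 with sea urchin PRDM14, 5.39 with mouse PRDM14 and 5.50 with the empty vector. It was thus lowest with CBFA2T added, by a log2 difference of -0.29 from sea urchin PRDM14 alone and of -0.24 from the empty vector. Of all 12042 genes, 5.66% were at least as far apart as Il6st between the sea urchin arrays, and 13.6% between the array with CBFA2T and the empty vector.

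Jak1, the gene of the receptor-bound tyrosine kinase, read 5.73 with sea urchin PRDM14 and CBFA2T, 5.72 with sea urchin PRDM14, 5.53 with mouse PRDM14 and 5.81 with the empty vector. The mouse PRDM14 array stood below the other 3, at a difference of -0.28 from the empty vector, a distance that 6.73% of all genes reached.

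Stat3 itself, the transcription factor of the pathway, read 6.47 with sea urchin PRDM14 and CBFA2T, 6.30 with sea urchin PRDM14, 6.43 with mouse PRDM14 and 6.42 with the empty vector. Mouse PRDM14 minus the empty vector gave 0.01, and 92.5% of all genes were at least as far apart. Sea urchin PRDM14 alone was the low array, by -0.12 against the empty vector, and CBFA2T added gave 0.17 over it. RMA values measure the RNA of Stat3 and not the phosphorylation of its protein.

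Socs3, the feedback inhibitor whose protein blocks JAK activity at gp130, read 5.78 with sea urchin PRDM14 and CBFA2T, 5.72 with sea urchin PRDM14, 5.76 with mouse PRDM14 and 5.65 with the empty vector. All 3 PRDM14 arrays were thus above the empty vector, by 0.13, 0.07 and 0.11 in that order. These are small distances, reached by 38.9%, 57.6% and 42.9% of all genes. A different Socs3 probe set was dim, at 3.72, 3.87, 3.60 and 3.77 in the same order of arrays, and gave -0.05, 0.10 and -0.17, so the direction for Socs3 depends on the probe set in 2 of the 3 comparisons.

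Stat3 and Socs3 both lie on chromosome 11. The 1067 genes of that chromosome past the filter had a median difference from the empty vector of 0.07 with sea urchin PRDM14 and CBFA2T, 0.06 with sea urchin PRDM14 and -0.004 with mouse PRDM14. With the median of the chromosome subtracted, Stat3 was at -0.009, -0.17 and 0.02 against the empty vector and Socs3 at 0.06, 0.02 and 0.11, in the same order. Osm, Stat5a, Socs7 and Cd68, named below, also lie on chromosome 11, and their values are given without this subtraction. The part of the chromosome shift in any of these differences was not tested.

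The STAT3 binding motif TTCNNNGAA, which reads the same on both strands, was searched in the 250 bases before each transcription start that RefSeq gives for GRCm38.p6. The 10 genes have 12 such windows, and Socs3 was the only gene with a match, in 1 window. Of all 32851 windows of that length, 7.02% held the motif. The Socs3 match starts 154 bases before the start used, on the minus strand, and lies inside the annotated span of the gene. It is shown because Socs3 is a well known direct STAT3 target, in 30 bases at chr11:117969501-117969530 with the motif in capitals.
Socs3: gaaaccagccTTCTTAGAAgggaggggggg

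Pim1 and Pim3 had the largest differences among the 3 members that were highest with mouse PRDM14, of which Lifr is the other. They encode serine/threonine kinases that support survival and self-renewal. Pim1 read 7.28 with sea urchin PRDM14 and CBFA2T, 7.22 with sea urchin PRDM14, 7.58 with mouse PRDM14 and 7.24 with the empty vector. Pim3 read 5.80 with sea urchin PRDM14 and CBFA2T, 5.73 with sea urchin PRDM14, 6.10 with mouse PRDM14 and 5.69 with the empty vector. For each of these genes the mouse PRDM14 array stood apart, and the other 3 arrays lay close together.

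Against the empty vector, mouse PRDM14 gave 0.34 for Pim1 (1.27-fold) and 0.40 for Pim3 (1.32-fold). Of all genes, 3.34% were at least as far apart as Pim1 and 1.81% as Pim3. These shares are a description, since the members were chosen with earlier results of these data known. Sea urchin PRDM14 gave -0.02 for Pim1 and 0.03 for Pim3, and sea urchin PRDM14 and CBFA2T gave 0.04 and 0.11. Set directly against mouse PRDM14, sea urchin PRDM14 was lower by -0.36 for Pim1 and -0.37 for Pim3, and sea urchin PRDM14 and CBFA2T by -0.31 and -0.29. These comparisons share the mouse PRDM14 array with the first, so they are not separate evidence that it stands apart.

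The upstream windows of Pim1 and Pim3 are shown because these 2 kinase genes had the largest positive differences from the empty vector among the members, both on the mouse PRDM14 array. They run 250 bases up to the annotated start, on the plus strand of GRCm38.p6, from RefSeq, at chr17:29490535-29490784 for Pim1 and chr15:88861944-88862193 for Pim3. Capitals mark GGGCGG on either strand, the GC box bound by SP1-family factors, with 7 matches for Pim1 and 3 for Pim3, 0 of which overlap another motif searched.
Pim1: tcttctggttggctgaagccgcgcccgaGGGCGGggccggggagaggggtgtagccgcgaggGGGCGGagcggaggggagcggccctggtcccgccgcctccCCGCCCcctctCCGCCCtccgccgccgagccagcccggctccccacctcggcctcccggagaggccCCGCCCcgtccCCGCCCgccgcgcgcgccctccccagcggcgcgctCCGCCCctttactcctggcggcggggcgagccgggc
Pim3: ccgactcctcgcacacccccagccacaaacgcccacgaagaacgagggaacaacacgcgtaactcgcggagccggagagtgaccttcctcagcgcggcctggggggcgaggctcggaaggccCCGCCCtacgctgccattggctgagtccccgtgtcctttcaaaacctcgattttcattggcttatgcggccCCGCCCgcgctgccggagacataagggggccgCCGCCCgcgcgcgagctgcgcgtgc

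The windows are rich in G and C, at 82.4% for Pim1 and 68.0% for Pim3, and neither holds TTCNNNGAA. GGGCGG was present in 8 of the 12 windows of the members and in 32.7% of all windows. CCAAT, searched on both strands, was in 7 of the 12, Pim3 included, and in 33.8% of all windows. CACGTG, the E-box, was in 2 of the 12, those of Gbx2 and of a second start of Pim1 further downstream, and in 6.02% of all. GGTCTCTAA, a motif reported for PRDM14 binding, was in 0 of the 12 and in 0.24% of all. A match describes the letters of the window and is not a binding site.

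**Figure D2:**
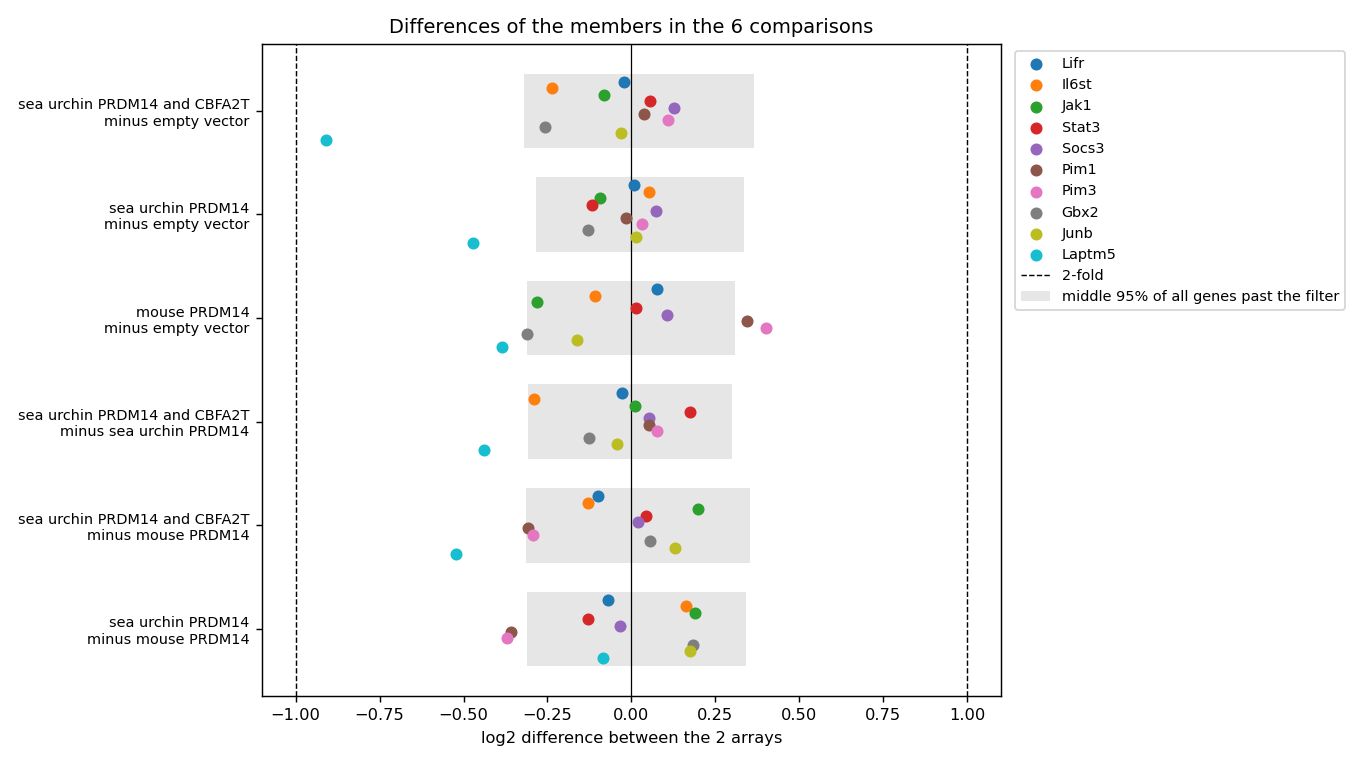
Log2 difference (horizontal axis) of each of the 10 genes in the 6 comparisons (vertical axis), with grey bars for the middle 95% of the 12042 genes past the filter and dashed lines at 2-fold. Laptm5 lies left of the grey bar in 5 comparisons, and Pim1 and Pim3 lie right of it for mouse PRDM14 minus empty vector.

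Gbx2 and Junb, genes of transcription factors, were lowest with mouse PRDM14. Gbx2, a homeobox gene whose product supports self-renewal downstream of LIF, read 6.75 with sea urchin PRDM14 and CBFA2T, 6.88 with sea urchin PRDM14, 6.69 with mouse PRDM14 and 7.01 with the empty vector. Against the empty vector the differences were -0.26, -0.13 and -0.31 in that order, and for mouse PRDM14 4.89% of all genes were as far apart. The empty vector array was the highest for this probe set. A different Gbx2 probe set read 6.55 with sea urchin PRDM14 and CBFA2T, 6.54 with sea urchin PRDM14, 6.16 with mouse PRDM14 and 6.47 with the empty vector.

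The Gbx2 probe sets thus gave the same difference for mouse PRDM14 minus empty vector, -0.31 each, and opposite directions for the sea urchin arrays, where the different set gave 0.08 with CBFA2T and 0.07 without. For sea urchin PRDM14 and CBFA2T minus mouse PRDM14 they gave 0.06 and 0.39, and for the array without CBFA2T minus mouse PRDM14 0.18 and 0.38. Probe set identifiers run by chromosome and strand: 92.8% of neighbouring named probe sets, over 18021 pairs, belong to genes of the same strand. Gbx2 is on the minus strand of chromosome 1. Of the 19 neighbours with a known strand around the brighter Gbx2 probe set, 0 were on the minus strand, and 18 of 19 were around the dimmer set. The strand that each set measures is not stated in the sources used here. The brighter set gives the Gbx2 values in the plots of members by array, of their differences and of the pathway lists. It also enters the medians of the 10 genes and their counts by array and by direction. Whether it measures the Gbx2 messenger RNA was not tested.

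Pim1, on the plus strand of chromosome 17, had a different probe set too, which was dim and flat at 3.80, 3.79, 3.81 and 3.77, with sea urchin PRDM14 and CBFA2T first and the empty vector last. Of its 16 neighbours with a known strand 15 were on the minus strand, whereas all 17 around the brighter Pim1 set were on the plus strand. The Pim1 values above come from the brighter set.

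**Figure D3:**
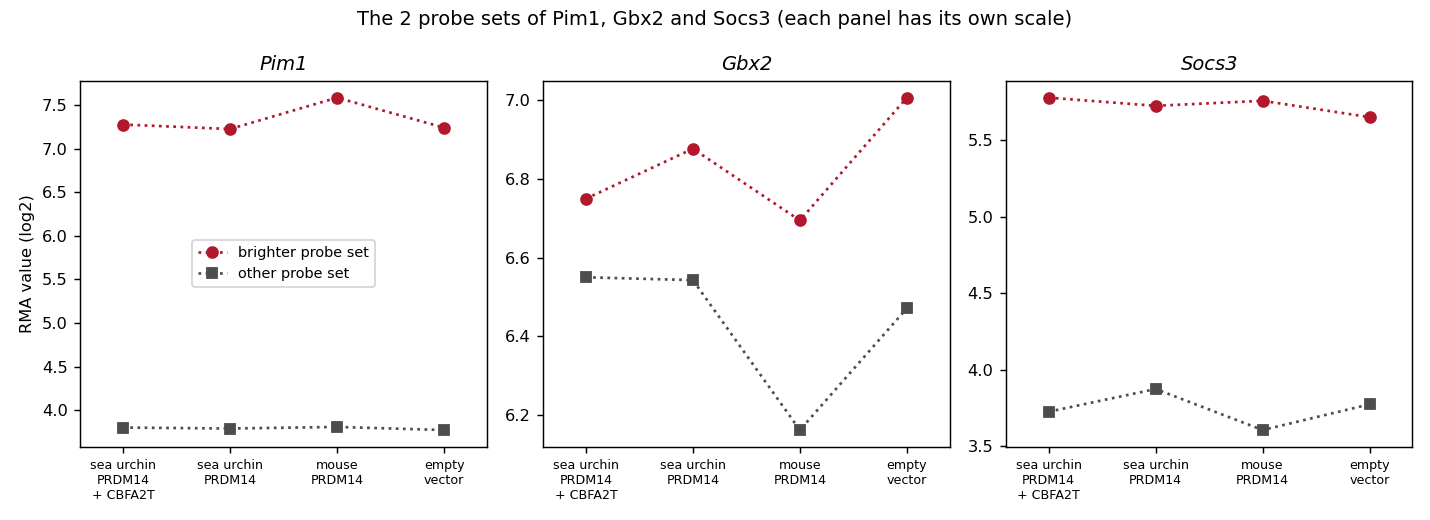
Log2 RMA values (vertical axis) of both probe sets of Pim1, Gbx2 and Socs3 on the 4 arrays (horizontal axis), with dotted lines only joining the points of a probe set. Both Gbx2 sets are lowest with mouse PRDM14, while the second Pim1 set is flat near 3.80.

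Junb, which encodes an AP-1 transcription factor subunit, read 5.53 with sea urchin PRDM14 and CBFA2T, 5.57 with sea urchin PRDM14, 5.40 with mouse PRDM14 and 5.56 with the empty vector. The difference of -0.16 for mouse PRDM14 minus empty vector was reached by 24.9% of all genes. Mouse PRDM14 was thus the low array for Jak1, Gbx2 and Junb and the high array for Lifr, Pim1 and Pim3. The other arrays had similar counts. The empty vector was highest for 3 members and lowest for 2, and sea urchin PRDM14 highest for 2 and lowest for 2. Sea urchin PRDM14 and CBFA2T was highest for 2 and lowest for 3. These counts take Gbx2 from its brighter probe set. In the different set Gbx2 was highest with sea urchin PRDM14 and CBFA2T, at 6.55, and not with the empty vector, at 6.47.

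Laptm5 had the widest range of the 10. It encodes a lysosomal membrane protein best known from blood cells, where it promotes the breakdown of antigen receptors. Laptm5 read 5.56 with sea urchin PRDM14 and CBFA2T, 5.997 with sea urchin PRDM14, 6.08 with mouse PRDM14 and 6.47 with the empty vector. All 3 PRDM14 arrays were below the empty vector, and the array with CBFA2T was the lowest.

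Against the empty vector, Laptm5 differed by -0.91 with sea urchin PRDM14 and CBFA2T, which is 0.532 times the empty vector level, by -0.47 with sea urchin PRDM14 and by -0.39 with mouse PRDM14. Genes at least as far apart made up 0.266%, 1.16% and 2.09% of all genes in that order. The members were chosen with earlier results of these data known, so these shares only describe the distances. These 3 differences share the empty vector array, so a high value on that array alone would give part of all 3. Between the sea urchin arrays, which leaves the empty vector out, Laptm5 differed by -0.44 with CBFA2T (1.26% of genes as far apart), and between sea urchin PRDM14 and CBFA2T and mouse PRDM14 by -0.52 (1.15%). The differences of -0.91, -0.44 and -0.52 share the array with CBFA2T, so a low value on that array alone would give part of each. Sea urchin PRDM14 minus mouse PRDM14, which leaves out that array and the empty vector, gave -0.08, a distance that 54.6% of all genes reached.

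Other blood cell genes went both ways. The mean of 11 blood cell markers without Laptm5 was 4.87 with sea urchin PRDM14 and CBFA2T, 4.85 with sea urchin PRDM14, 4.85 with mouse PRDM14 and 4.84 with the empty vector, and 6 of the 11 passed the filter. Coro1a, an actin-binding protein gene of leukocytes, was lowest and highest on the same arrays as Laptm5, at 5.79 with sea urchin PRDM14 and CBFA2T, 5.93 with sea urchin PRDM14, 5.89 with mouse PRDM14 and 5.97 with the empty vector. Cd68, a macrophage lysosome gene, ran the reverse way, at 6.10, 5.97, 5.86 and 5.74 in the same order. Ptprc, the gene of the pan-leukocyte surface protein CD45, was below the filter value on all 4 arrays, between 3.34 and 3.51.

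Of 408 genes past the filter with a range of at least 0.5, those nearest to Laptm5 in their 4 values after centring were Cth, Mir290a and Mir188. Cth, an enzyme gene of cysteine synthesis, lay at a root mean square distance of 0.06 from it. It read 5.18 with sea urchin PRDM14 and CBFA2T, 5.57 with sea urchin PRDM14, 5.79 with mouse PRDM14 and 6.19 with the empty vector. The microRNA genes Mir290a, at a distance of 0.08, and Mir188, at 0.11, had the same order of arrays. Selection by distance favours such an order, so it is not a separate result. The likeness rests on 4 arrays, 1 per group.

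**Figure D4:**
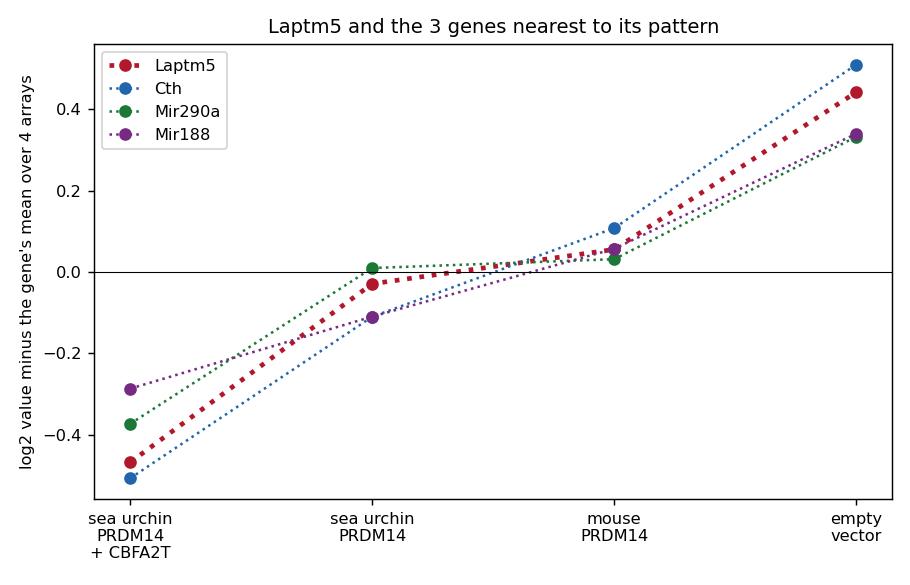
Log2 value minus the gene's mean over the 4 arrays (vertical axis) for Laptm5, Cth, Mir290a and Mir188 on each array (horizontal axis), with dotted lines only joining the points of a gene. All 4 genes are lowest with sea urchin PRDM14 and CBFA2T and highest with the empty vector. Cth, Mir290a and Mir188 were picked for their nearness to Laptm5.

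As a set, the 10 genes had no common direction. Their median difference from the empty vector was -0.03 with sea urchin PRDM14 and CBFA2T, -0.004 with sea urchin PRDM14 and -0.05 with mouse PRDM14, and 4, 5 and 5 of the 10 were above 0. Over all 12042 genes the medians were 0.005, 0.006 and -0.005, and 51.6%, 51.6% and 48.4% were above 0. The median of the 10 was -0.01 for the sea urchin arrays with and without CBFA2T (5 of 10 above 0), against -0.0001 over all genes. It was -0.04 for sea urchin PRDM14 and CBFA2T against mouse PRDM14 (5 of 10) and -0.05 for sea urchin PRDM14 against mouse PRDM14 (4 of 10), where all genes had medians of 0.01 and 0.01. All of these medians and counts take Gbx2 from its brighter probe set. The different set gave 0.08, 0.07 and -0.31 against the empty vector, and 0.007 between the sea urchin arrays. The brighter set was below 0 in each of these comparisons.

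The wider pathway was read from 5 lists of 58 other genes, of which 54 had a probe set of their own and 44 passed the filter. In each of the 6 comparisons 0 of the 44 were 2-fold apart. At 1.5-fold, 1 was lower in the comparison of the sea urchin arrays, Laptm4b, and 2 were past the threshold for sea urchin PRDM14 against mouse PRDM14, Laptm4b higher and Tfcp2l1 lower. The share of all genes past 1.5-fold was 0.515% in each of these comparisons. In the other 4 comparisons 0 of the 44 were.

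Among ligands and receptors of the IL-6 family 6 of 11 genes passed the filter. Cntfr, the receptor chain gene for ciliary neurotrophic factor, had the largest difference, 0.36 for sea urchin PRDM14 minus mouse PRDM14, at 6.23 with sea urchin PRDM14 and 5.88 with mouse PRDM14. Osm, the oncostatin M gene, was above the empty vector by 0.15 with sea urchin PRDM14 and CBFA2T, 0.15 with sea urchin PRDM14 and 0.18 with mouse PRDM14.

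Of the other JAK and STAT genes 4 of 9 passed. Jak2, a kinase gene close in function to Jak1, read 4.56 with sea urchin PRDM14 and CBFA2T, 4.52 with sea urchin PRDM14, 4.84 with mouse PRDM14 and 4.57 with the empty vector, and so passed the filter through the mouse PRDM14 array alone. That array was the high array for Jak2 and the low array for Jak1. Stat5a was 0.25 above the empty vector with sea urchin PRDM14, 0.08 with CBFA2T added and 0.15 with mouse PRDM14.

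The inhibitors of JAK and STAT signalling lay slightly above the empty vector on the sea urchin PRDM14 array. There 11 of 14 were above 0 with a median of 0.12, while 51.6% of all genes were above 0 with a median of 0.006. Among the 11 are Socs5, Socs7 and Ptpn11, which were below the filter value on the empty vector array and so passed through other arrays, which favours differences above 0 in this count. With CBFA2T added 9 of 14 were above 0 with a median of 0.03, against 51.6% of all genes. Socs7 and Ptpn11 are among the 9. With mouse PRDM14 10 of 14 were above 0 with a median of 0.07, against 48.4% of all genes. Socs7 is among the 10, so the filter favours differences above 0 in these counts too. With CBFA2T against sea urchin PRDM14 alone, 3 of 14 were above 0 with a median of -0.09. In that comparison 49.9% of all genes were above 0, with a median of -0.0001. It shares the sea urchin PRDM14 array with the count of 11 of 14. Socs5 passed the filter through that array alone, which favours a difference below 0 here. Ptpn11, the gene of the phosphatase SHP2, which binds gp130 and also carries its signal to ERK, read 4.88 with sea urchin PRDM14 and CBFA2T, 5.01 with sea urchin PRDM14, 4.57 with mouse PRDM14 and 4.63 with the empty vector. Ptpn2, a phosphatase gene whose product acts on JAK1 and STAT proteins, was 0.34 above the empty vector with sea urchin PRDM14, 0.09 with CBFA2T added and 0.18 with mouse PRDM14.

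Of 18 other genes reported as STAT3 targets 16 passed, with medians against the empty vector of -0.01 with sea urchin PRDM14 and CBFA2T, -0.004 with sea urchin PRDM14 and -0.04 with mouse PRDM14. Tfcp2l1, the gene of a naive state transcription factor, read 7.21 with sea urchin PRDM14 and CBFA2T, 6.93 with sea urchin PRDM14, 7.60 with mouse PRDM14 and 7.35 with the empty vector. Klf4, a Krüppel-like factor gene, read 5.88, 5.74, 6.26 and 5.98 in the same order. Klf5 (6.35, 6.02, 6.51 and 6.30) and Bcl3 (6.20, 5.89, 6.37 and 5.94) were named after their values were seen. Like Pim1 and Pim3, these 4 genes were highest with mouse PRDM14, and they were lowest with sea urchin PRDM14 alone. Against the empty vector, sea urchin PRDM14 gave -0.42 for Tfcp2l1, -0.24 for Klf4, -0.28 for Klf5 and -0.06 for Bcl3. For Pim1 that difference was -0.02, a distance that 90.7% of all genes reached, and Pim3 was lowest with the empty vector.

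In contrast, 10 of the 16 targets were below 0 for mouse PRDM14 minus empty vector, where 51.5% of all genes past the filter were too, so the high values of Tfcp2l1, Klf4, Klf5 and Bcl3 were not shared by the list.

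Among 5 paralogs of the target genes, 4 passed. Laptm4b, a lysosomal membrane protein gene related to Laptm5, read 4.38 with sea urchin PRDM14 and CBFA2T, 5.02 with sea urchin PRDM14, 4.38 with mouse PRDM14 and 4.88 with the empty vector. Its pattern was thus not that of Laptm5, since sea urchin PRDM14 alone was the highest array. It lay under the filter value on 2 of the 4 arrays. Jun, the paralog of Junb, was 0.33 above the empty vector with sea urchin PRDM14, 0.22 with CBFA2T added and 0.06 with mouse PRDM14.

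**Figure D5:**
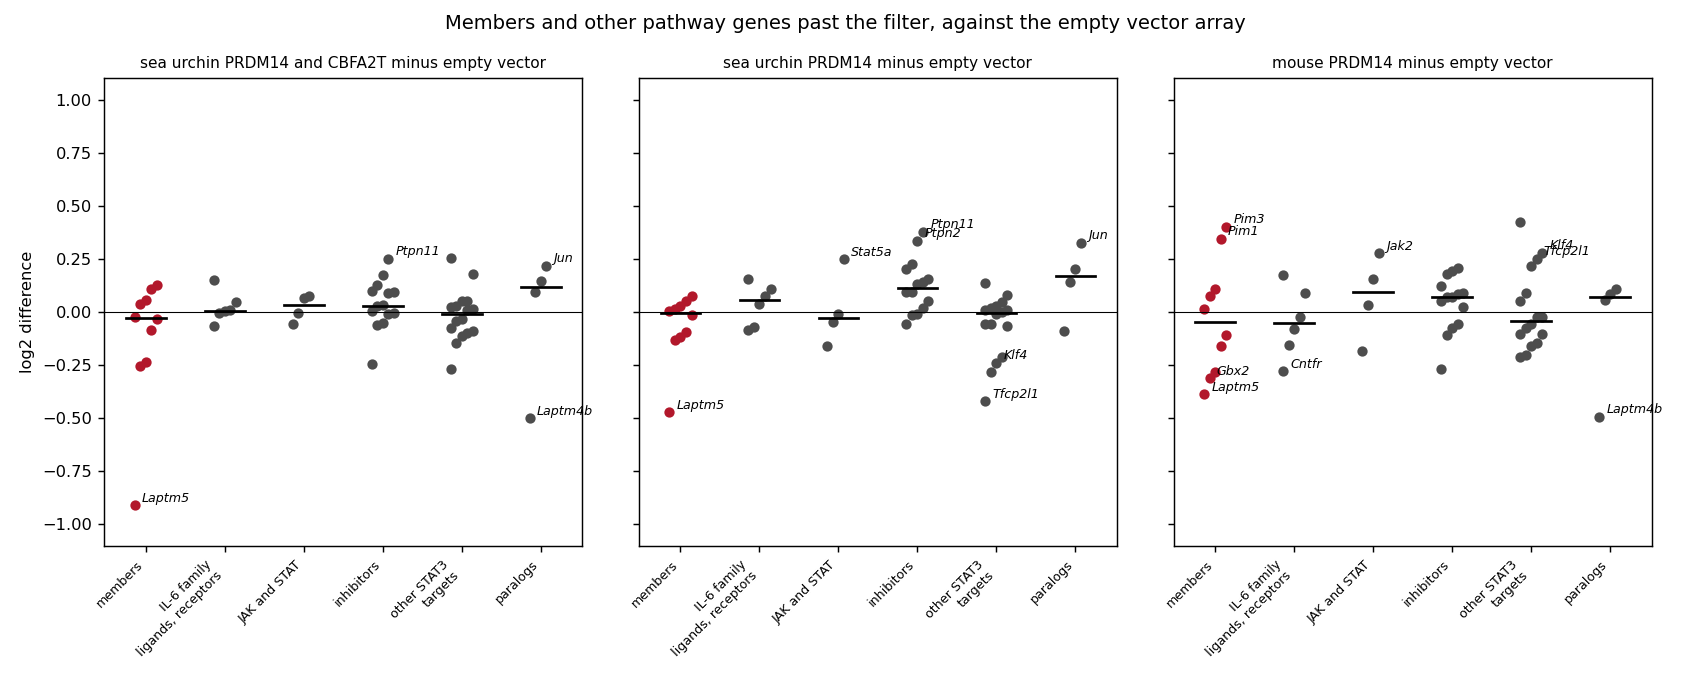
Log2 difference from the empty vector array (vertical axis) of the 10 members (red) and of the other pathway genes past the filter (grey), by list (horizontal axis), with a black line at each list's median. Laptm5 with sea urchin PRDM14 and CBFA2T, at -0.91, is the point farthest from 0.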

How the data were processed

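Total RNA of 4 groups was hybridised to 4 arrays of strip 2, with 1 array per group. The authors deposited log2 values. They name RMA as the tool, per the submitters' processing notes, with no version and no list of the arrays that entered it together. Array medians lay between 4.54 and 4.55.

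Of 41345 probe sets, 23521 were paired with 1 gene, 1814 with several and 16010 with none in the platform annotation. Of the 23521, 23328 had an Entrez identifier in the RefSeq table of GRCm38.p6, which gave chromosomes. A gene's value came from its probe set with the highest mean, which gave 22180 genes, and 12042 reached 4.84 on at least 1 array. With 1 array per group, differences were called by size, at 2-fold (1 on the log2 scale). Distances between arrays were also set beside those of all genes, as a description.

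The members and lists were chosen with earlier results of these data known, so the shares of genes as far apart as a member are descriptions only. From each list of other pathway genes, the text names those past 2-fold, or else the 2 with the largest absolute difference. For the member of the widest range, the 3 nearest genes by root mean square distance are named. Results were recomputed at 1.5-fold, with no filter, with a filter at 5.65, after cyclic loess, with the mean of all probe sets, after subtraction of the chromosome median and, chosen after seeing the data, with the different probe set of Socs3, Pim1 and Gbx2. Promoter sequences are from RefSeq, GRCm38.p6, and no protein sequence was used here. Of the 58 other pathway genes listed, 4 are not reported here. The tools were limma 3.58.1 in R 4.3.3, and pandas 2.3.3, numpy 2.4.6 and matplotlib 3.10.9 in Python 3.11.15.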

Additional observations from a re-analysis of the deposited data

How the results depend on the processing

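No paired analysis was possible because each group has 1 array. The count of members past the threshold was 0 in all 6 comparisons with no filter, with the stricter filter, after cyclic loess and with the mean of all probe sets. At 1.5-fold it became 1, Laptm5, for sea urchin PRDM14 and CBFA2T against the empty vector. Over all genes, the counts at 1.5-fold were 99 in place of 25 for that comparison, 60 in place of 4 for sea urchin PRDM14 and 55 in place of 10 for mouse PRDM14 against the empty vector. They were 62 in place of 22 for the array with CBFA2T against sea urchin PRDM14 alone, 89 in place of 22 for that array against mouse PRDM14, and 62 in place of 7 for sea urchin PRDM14 against mouse PRDM14. The lower threshold itself makes these counts larger. The other alternatives kept each of these counts within 1.5 times.

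Of 60 differences of single members, 0 turned sign after cyclic loess, 3 with the chromosome median subtracted and 4 with the mean of all probe sets. None of those that turned was larger than 0.11 in size. The largest change with the mean of all probe sets was 0.17, for Pim1 in sea urchin PRDM14 minus mouse PRDM14 (-0.36 to -0.19). For mouse PRDM14 minus empty vector Pim1 went from 0.34 to 0.19. That mean takes in the dim and flat Pim1 probe set. With the different probe set of Socs3, Pim1 and Gbx2, 8 of 18 turned sign, the largest of them 0.26 in size, for Gbx2 with sea urchin PRDM14 and CBFA2T against the empty vector, and the cause was not tested. RMA values carry no detection call, so for Lifr, which lay between 5.11 and 5.21 and thus close to the filter value of 4.84, the share of background in the signal is unknown.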
